A study of Saccharomyces cerevisiae with 12 samples.

Results

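Cell separation in Saccharomyces cerevisiae was followed through 9 genes: CBK1 and MOB2 of the RAM network, a kinase pathway of cell separation and polarized growth, AMN1, and the separation genes CTS1, DSE1, DSE2, DSE4, SCW11 and EGT2. They were chosen by name, as the probe sets that the platform annotation pairs with these symbols, and all 9 were found with 1 probe set each among 5489 probe sets for 5444 genes. Transcripts were quantified with 12 Affymetrix Yeast Genome 2.0 arrays, and each of 4 conditions had 3 arrays, from 3 separate bioreactors according to the methods. The conditions were the glucose consumption phase 1 hour after a pulse of 5-hydroxymethylfurfural (HMF, 3.9 g/L) and furfural (1.2 g/L), called glucose pulse; the same phase without a pulse, called glucose control; the xylose consumption phase 1 hour after the same pulse, called xylose pulse; and the xylose phase without it, called xylose control. All cultures were anaerobic batch cultivations of one strain, VTT C-10883, a MATα strain (MAL2-8c, SUC2) that carries the xylose reductase and xylitol dehydrogenase genes XYL1 and XYL2 of Scheffersomyces stipitis at the URA3 locus, an additional xylulokinase gene XKS1 and a restored URA3. A single engineered strain limits what the values say of other yeasts. The methods describe the reference samples both as taken just before the pulse and as unpulsed cultivations, and the labels name them only as controls, and if they were taken before the pulse, its effect and the passing of 1 hour cannot be told apart. The xylose phase also came later in the batch than the glucose phase, and its pulse was a separate experiment according to the methods. Sugar, culture age and experiment cannot be told apart. The paper reports that the specific growth rate fell after the glucose pulse, and states that cells were not growing in the xylose phase. Growth therefore cannot be told apart from the pulse on glucose or from the phase.

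A budding yeast cell and its daughter stay joined by a septum of chitin and glucan after cytokinesis. The kinase Cbk1, bound to its activator Mob2 and helped by Kic1, Hym1, Tao3 and Sog2, acts at the end of mitosis and is needed for the expression of separation genes in the daughter. The secreted enzymes among their products digest the septum from the daughter side. Cts1 is the chitinase of this process and Dse4 an endo-1,3-beta-glucanase, while Scw11, Dse2 and Egt2 are wall or secreted proteins related to glucanases or needed for clean separation, and Dse1 is a daughter-specific protein of the bud neck region. Amn1 is another daughter-specific protein, an antagonist of the mitotic exit network that binds the GTPase Tem1. These transcripts are confined to a short window of the cell cycle, and the arrays report a mixed population. Fewer cells in that window and less RNA per cell therefore cannot be told apart here.

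Values are log2 expression from RMA, so that a difference of 1 is a 2-fold change. The medians of the 12 arrays lay between 9.683 and 9.741, and arrays of one condition correlated across probe sets at an r between 0.992 and 0.998. The number of arrays, and not a count of molecules, limits the precision. The α-specific genes STE3 and SAG1, whose products are the a-factor receptor and the agglutinin of α cells, lay between 7.64 and 12.75 on all arrays, and 6 of 7 a-specific genes between 2.32 and 6.2. The exception, the a-factor exporter gene STE6, averaged 7.28 and 6.06 in glucose pulse and control cells, and 7.19 and 8.03 in xylose pulse and control cells. Both α-specific genes were lower on xylose, with STE3 at 8.2 ± 0.07 in the xylose control and 12.35 ± 0.13 in the glucose control (SD, n = 3 each). Of 8 anaerobic marker genes, 5 stayed between 12.16 and 14.07 on every array. Of the other 3, AAC3 and ANB1 were 5.78 and 3.72 lower on the log2 scale in the xylose control than in the glucose control, and PAU7 was 4.44 higher, with 13.87 ± 0.18 in the xylose control and 9.43 ± 0.16 in the glucose control (SD, n = 3 each).

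**Figure D1:**
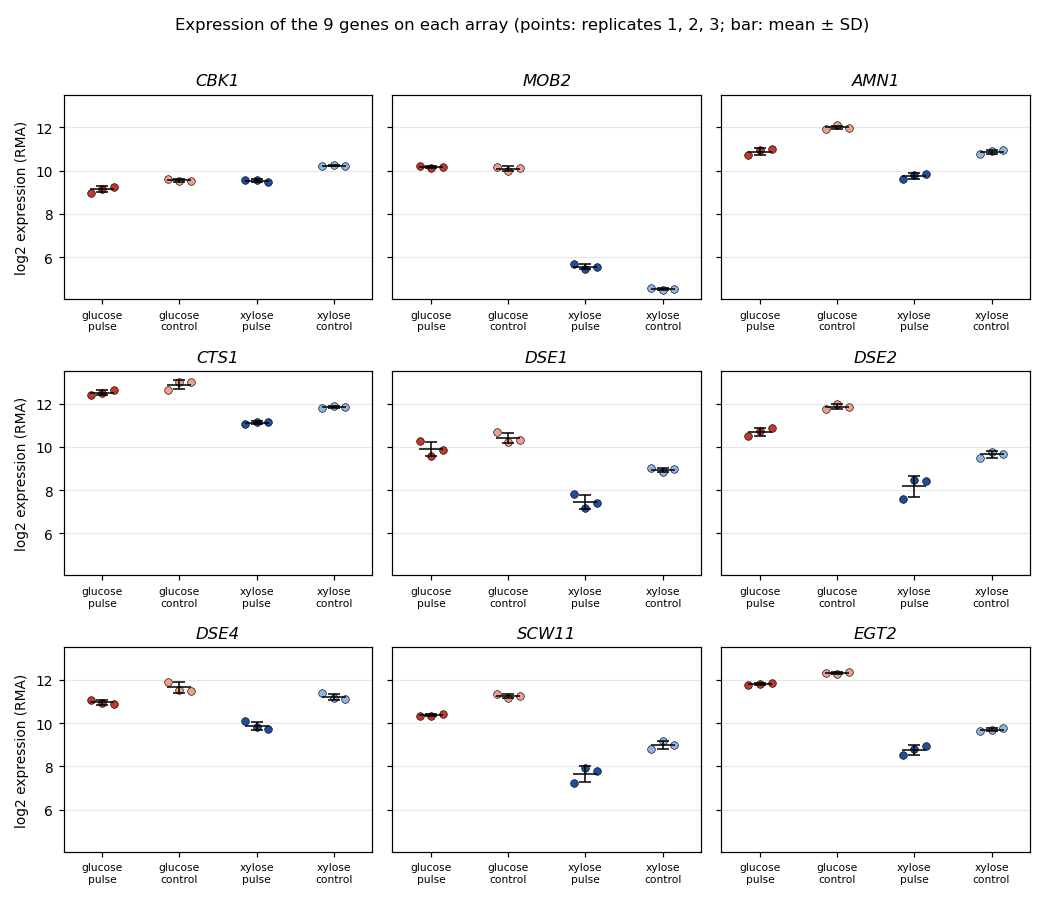
Log2 expression (y axis) of each of the 9 genes on every array, by condition (x axis). Points are replicates 1, 2 and 3 from left to right, and the bar with whiskers is the mean ± SD (n = 3). MOB2 lies near 10 in both glucose conditions and between 4.48 and 5.69 in both xylose conditions, and the 6 separation genes are lowest in xylose pulse cells.

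The 4 conditions came in the same order, glucose control, glucose pulse, xylose control and xylose pulse from high to low, for AMN1, CTS1, DSE1, DSE2, SCW11 and EGT2. For DSE2, SCW11 and EGT2 the arrays of neighbouring conditions in that order did not overlap. The share of all probe sets with this order or this separation was not counted. Pulsed arrays all lay below the controls in 34.1% of all probe sets in the glucose phase and 40.6% in the xylose phase. For CTS1 and DSE1 the glucose pulse overlapped the glucose control, and for AMN1 the glucose pulse overlapped the xylose control. DSE4 had the xylose control above the glucose pulse, again without overlap. The distance between the highest and the lowest condition mean was 3.68 for DSE2, 3.62 for SCW11, 3.56 for EGT2 and 2.94 for DSE1 on the log2 scale, but 1.76 for CTS1 and 1.77 for DSE4. CBK1 and MOB2 followed other orders. CBK1 was highest in the xylose control and lowest in the glucose pulse, over a distance of 1.1, with the glucose control and the xylose pulse overlapping. MOB2 was high in both glucose conditions, which overlapped, and low in both xylose conditions, over a distance of 5.66.

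In the glucose consumption phase AMN1 and DSE2 were lower after the furan pulse than in the control, past the thresholds used here. These were an adjusted p under 0.01 from limma and more than a 2-fold change. AMN1 had 10.71, 10.94 and 11 in the 3 glucose pulse arrays, against 11.93, 12.09 and 11.99 in the glucose control arrays. All pulsed arrays lay below all control arrays, and the change was -1.12 on the log2 scale (standard error 0.10, adjusted p = 5.21e-07). DSE2 had 10.49, 10.72 and 10.87 in glucose pulse cells, against 11.74, 11.97 and 11.86 in glucose control cells. This gave -1.16 (standard error 0.19, adjusted p = 1.43e-04), again without overlap. Thus 2 of the 9 genes were called lower and none higher, where 9.55% of all probe sets were called lower and 11.6% higher in this comparison. Pulsed arrays that all lie below the controls were found in 34.1% of all probe sets.

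Of the other 7 genes, 5 had an adjusted p under 0.01 with a decrease of less than 2-fold. Together with AMN1 and DSE2, 7 of the 9 genes had a negative change of any size with such a p, as had 27.1% of all probe sets. SCW11 came nearest to the threshold, with 10.31, 10.35 and 10.41 in glucose pulse cells, against 11.35, 11.18 and 11.27 in glucose control cells. The difference was -0.91 (standard error 0.15, adjusted p = 1.34e-04). The glucanase gene DSE4 had -0.69, with an adjusted p of 3.76e-04, and EGT2 had -0.49, with one of 6.17e-04, both with all pulsed arrays below the controls. CBK1 itself had 8.98, 9.15 and 9.26 in glucose pulse cells, against 9.6, 9.5 and 9.53 in glucose control cells, a difference of -0.42 (adjusted p = 5.84e-04). The chitinase gene CTS1 had -0.36 (adjusted p = 0.00701), and its replicate ranges touched, with 12.63 in both the highest pulsed and the lowest control array. DSE1 had -0.50 (95% interval -0.90 to -0.09) and an adjusted p of 0.0305. With the replicate number as a block its adjusted p was 5.49e-04, and the pulsed array was the lower one at each replicate number.

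MOB2 showed no detectable difference in the glucose phase. Its values were 10.23, 10.11 and 10.17 after the pulse, against 10.18, 9.98 and 10.13 in the control, a log2 fold change of 0.07 with a 95% interval of -0.11 to 0.26 (adjusted p = 0.468). The interval leaves no room for a change as large as 2-fold. Over the 9 genes the median log2 fold change was -0.50, where that of all probe sets was 0.03.

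When the furans were added to xylose-consuming cells, 5 of the 9 genes fell by more than 2-fold, namely DSE1, DSE2, SCW11, DSE4 and AMN1, and MOB2 rose. The shares over all probe sets were 8.38% called lower and 11.8% called higher. DSE1 had 7.82, 7.18 and 7.38 in xylose pulse cells, against 9.01, 8.83 and 8.98 in xylose control cells. The difference was -1.48 (standard error 0.19, adjusted p = 1.29e-05). DSE2 had 7.6, 8.48 and 8.44 after the pulse, against 9.49, 9.77 and 9.68 in the control, or -1.47 (standard error 0.19, adjusted p = 1.84e-05). The first xylose pulse array was the lowest for this gene, and the other 2 also lay below all control arrays.

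SCW11 showed the same low first array, with 7.23, 7.9 and 7.8 in xylose pulse cells, against 8.82, 9.18 and 8.97 in xylose control cells. The difference was -1.35 (standard error 0.15, adjusted p = 4.19e-06). The glucanase gene DSE4 had 10.09, 9.8 and 9.74 after the pulse, against 11.37, 11.18 and 11.11 in the control, with -1.34 (standard error 0.13, adjusted p = 1.13e-06). For all 5 genes called lower the pulsed arrays lay below the control arrays, as in 40.6% of all probe sets. AMN1, the mitotic exit antagonist, had 9.6, 9.81 and 9.85 in xylose pulse cells, against 10.75, 10.91 and 10.93 in xylose control cells, and its change of -1.11 (standard error 0.10, adjusted p = 6.56e-07) stood beside -1.12 in the glucose phase.

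The other 3 genes lay lower after the xylose pulse by less than 2-fold. EGT2 had 8.53, 8.78 and 8.95 in xylose pulse cells, against 9.62, 9.7 and 9.76 in xylose control cells, or -0.94 on the log2 scale (standard error 0.10, adjusted p = 2.42e-06). It crossed the threshold, at -1.04, without xylose pulse replicate 3. The chitinase gene CTS1 had 11.04, 11.14 and 11.16 after the pulse, against 11.79, 11.87 and 11.86 in the control, or -0.73 (adjusted p = 3.70e-05). CBK1 had 9.56, 9.57 and 9.47, against 10.21, 10.28 and 10.21, or -0.70 (adjusted p = 6.67e-06). No array of the pulse reached the control range in any of these 3 genes.

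MOB2 was the only one of the 9 genes called higher. It had 5.69, 5.43 and 5.55 in xylose pulse cells, against 4.55, 4.48 and 4.52 in xylose control cells, so that all pulsed arrays were above the controls. The rise was 1.04 on the log2 scale (standard error 0.09, adjusted p = 2.45e-07), and it missed the 2-fold threshold, at 0.98, without xylose pulse replicate 1. Both groups were dim. The 10th percentile of the values on an array lay between 5.63 and 6.13. No detection call was examined for such dim values, and the size of this change is not exact. CBK1, the kinase that Mob2 activates, thus had a negative change below the threshold of size where MOB2 rose.

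**Figure D2:**
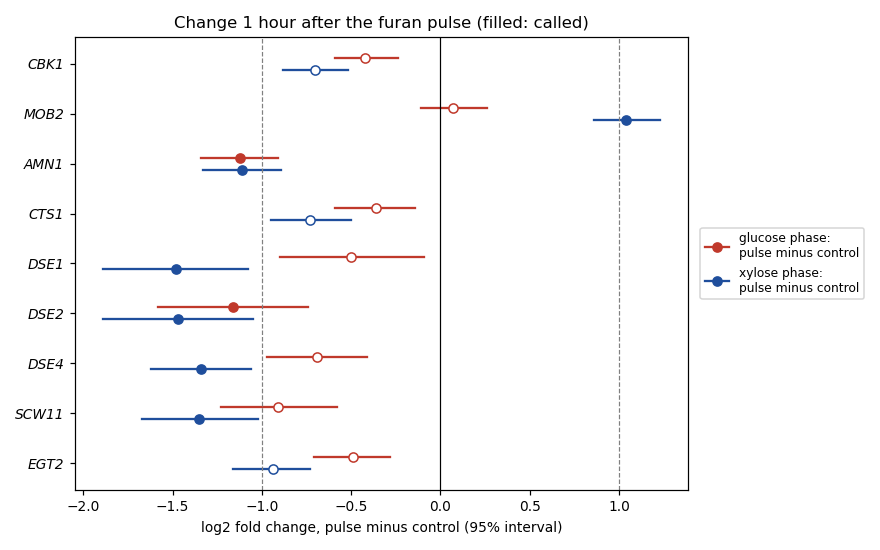
Log2 fold change of each gene 1 hour after the pulse (x axis, pulse minus control), with the 95% interval, in the glucose phase (red) and the xylose phase (blue). Filled points were called, with an adjusted p under 0.01 and a change of more than 2-fold (dashed lines at -1 and 1). AMN1 coincides in both phases at -1.12 and -1.11, and the 6 separation genes lie further to the left in the xylose phase.

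AMN1 and DSE2 were called lower in both phases, that is 2 of the 9 genes, where 37 of 5489 probe sets (0.674%) were. Whether a response differed between the phases was tested as a contrast of its own, the log2 fold change in the xylose phase minus that in the glucose phase. None of the 9 genes was called by both thresholds, while 38.9% of all probe sets were. An unadjusted p under 0.05 from limma was found for 6 of the 9 and for 75.1% of all probe sets, and an adjusted p under 0.01 for 3 of the 9 and for 64.3% of all. Neither count stood above the share of all probe sets. These were MOB2 at 0.97 (standard error 0.12, adjusted p = 9.61e-06), DSE1 at -0.98 (standard error 0.26, adjusted p = 0.00458) and DSE4 at -0.65 (standard error 0.18, adjusted p = 0.0061). DSE1 passed the 2-fold threshold when any one of glucose control replicate 1, glucose pulse replicate 2 or 3, xylose control replicate 2 or xylose pulse replicate 1 was left out, with values of -1.01 to -1.16. MOB2 passed it, at 1.03, without glucose control replicate 2 or without xylose pulse replicate 2.

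All 6 separation genes had a negative difference between the phases, from -0.31 for DSE2 to -0.98 for DSE1, with a median of -0.44 beside -0.13 for all probe sets. With the replicate number as a block 5 of the 9 genes, in place of 3, had an adjusted p under 0.01, the added genes being EGT2 and CTS1. EGT2 had -0.45 (adjusted p = 0.011, with the block 0.00263), CTS1 -0.36 (adjusted p = 0.0391, with the block 0.00931), SCW11 -0.44 (adjusted p = 0.0796) and DSE2 -0.31, with a 95% interval of -0.90 to 0.28. For AMN1 the difference was 0.02, with a 95% interval of -0.29 to 0.33 (adjusted p = 0.926).

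Between the phases, without a pulse, 7 of the 9 genes were called lower in xylose control cells than in glucose control cells, against a share of 27.2% of all probe sets. The largest difference was that of MOB2, with 4.55, 4.48 and 4.52 in the xylose control, against 10.18, 9.98 and 10.13 in the glucose control. The difference of -5.58 (standard error 0.09, adjusted p = 8.01e-15) is not an exact size, since the xylose values lay below the 10th percentile of the arrays.

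EGT2 had 9.62, 9.7 and 9.76 in xylose control cells, against 12.31, 12.26 and 12.36 in glucose control cells, or -2.61 on the log2 scale (standard error 0.10, adjusted p = 1.71e-11). SCW11 had -2.28 and DSE2 -2.21, with standard errors of 0.15 and 0.19 (adjusted p = 5.78e-09 and 1.18e-07). DSE1 followed with -1.46, AMN1 with -1.15 and CTS1 with -1.03, all without overlap between the groups, as in 42.6% of all probe sets. The last of these lost its call, at -0.96 or -0.98, without glucose control replicate 2 or 3, and at -0.96 after a second quantile normalization. DSE4 differed least of the separation genes, at -0.43 (standard error 0.13, adjusted p = 0.00668). Its values were 11.37, 11.18 and 11.11 in the xylose control, against 11.92, 11.54 and 11.48 in the glucose control. CBK1 was the only gene of the 9 with a positive difference, 0.69 (standard error 0.08, adjusted p = 3.07e-06), short of 2-fold. The kinase gene was therefore somewhat higher and its activator gene much lower in xylose-consuming cells.

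After the pulse, 8 of the 9 genes were called lower in xylose pulse cells than in glucose pulse cells, where 22.9% of all probe sets were. EGT2 had a log2 fold change of -3.06, SCW11 -2.71, DSE2 -2.52, DSE1 -2.44, CTS1 -1.39, AMN1 -1.13 and DSE4 -1.08. MOB2 had -4.61, which is not exact either, since its xylose pulse values were dim (5.56 on average). CBK1 had 0.40 (adjusted p = 5.08e-04). The comparisons of a pulse with its control and of one phase with the other use the same arrays, so their values are not independent of each other.

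**Figure D3:**
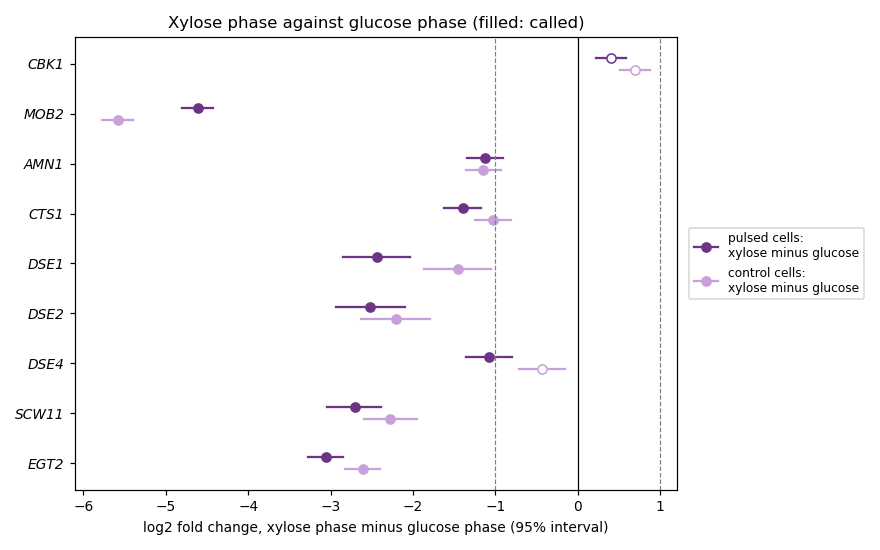
Log2 fold change of each gene between the phases (x axis, xylose minus glucose), with the 95% interval, for pulsed cells (dark) and control cells (light). Filled points were called. MOB2 lies at -4.61 and -5.58, CBK1 at 0.40 and 0.69, and the separation genes between -0.43 and -3.06.

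The other components of the RAM network were also examined. The values of 5 such genes are given here. Over all probe sets 9.55% were called lower and 11.6% higher after the glucose pulse, and 8.38% and 11.8% after the xylose pulse. Between the controls 27.2% were called lower, and the share called higher is not given. For the difference between the responses 38.9% were called either way. In the glucose phase the upstream kinase gene KIC1 and the leucine-rich repeat protein gene SOG2 rose after the pulse, by a log2 fold change of 1.39 (adjusted p = 8.65e-06) and 1.04 (adjusted p = 3.15e-07), and none of the 5 fell. KIC1 averaged 9.97 ± 0.32 in glucose pulse cells and 8.58 ± 0.2 in glucose control cells (SD, n = 3 each). The scaffold gene TAO3 had 0.68, the RNA-binding protein gene SSD1, whose product is a substrate of Cbk1, 0.35 and HYM1 0.10. In the xylose phase none of the 5 was called in either direction. SSD1 had -0.89 there and TAO3 -0.60, with 1 of the 5 changes positive. The difference between the responses was called for KIC1 at -1.68, TAO3 at -1.28 and SSD1 at -1.24. Without a pulse, KIC1 and SSD1 were higher in the xylose control than in the glucose control, by 2.30 and 2.10, and HYM1 and SOG2 had 0.67 and 0.66. TAO3 had -0.21, so that none of the 5 was called lower in xylose control cells, where MOB2 was.

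Over all probe sets 9.55% were called lower and 11.6% higher after the pulse in the glucose phase. Among 18 genes for Swi5, a transcription factor that acts at the exit from mitosis, and for further products of early G1, 5 fell there and none rose, at a median log2 fold change of -0.75. They were HO, the mating-type endonuclease gene, at -2.30, the bud-site gene BUD9 at -2.22, the cyclin gene PCL9 at -1.26, the bud neck protein gene NIS1 at -1.24 and the wall protein gene PRY3 at -1.15. DSE3, another daughter-specific gene, had -0.83 in the glucose phase and -0.87 in the xylose phase, short of 2-fold in both. In the xylose phase 4 of the 18 fell and 2 rose, at a median of -0.15, where 8.38% of all probe sets were called lower and 11.8% higher. SWI5 fell by 1.67, the cytokinesis gene CYK3 by 1.53, NIS1 by 1.51 and the Clb kinase inhibitor gene SIC1 by 1.23 on the log2 scale. The G1 cyclin gene CLN3 rose by 4.07, to 8.32 ± 0.21 in xylose pulse cells, against 4.25 ± 0.21 in xylose control cells (SD, n = 3 each), and TEC1 by 1.11. The control values of CLN3 and the pulse values of SWI5 lay below the 10th percentile of the arrays, and the sizes of these changes are not exact. SWI5 had averaged 4.63 ± 0.09 in xylose pulse cells and 6.3 ± 0.2 in xylose control cells. In the xylose control, compared with the glucose control, 9 of the 18 were lower and 4 higher, where 27.2% of all probe sets were called lower. The share of all probe sets called higher there is not given, so the 4 cannot be set against it. SWI5 was lower by 3.76, whereas ASH1, the daughter-specific repressor gene, was higher by 1.71 and SIC1 by 1.41.

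Genes of septum chitin and of other wall hydrolases, 16 in all, had a median near that of all probe sets after either pulse, at 0.06 in the glucose phase and -0.04 in the xylose phase. In the glucose phase 1 fell, SUN4, a septation glucanase gene, at -1.13, and none rose (9.55% and 11.6% of all probe sets). In the xylose phase 3 fell and 3 rose (8.38% and 11.8% of all probe sets). The primary septum chitin synthase gene CHS2 fell by 1.99 between dim values (3.68 in xylose pulse cells and 5.67 in xylose control cells), UTR2 by 1.52 and SIM1 by 1.45, while the glucanase gene SCW10 rose by 3.19, the glucanosyltransferase gene GAS1 by 2.57 and SUN4 by 1.15. CHS1, the synthase that repairs the wall at separation, had 0.38 (adjusted p = 0.0115). ACF2, the intracellular relative of DSE4, had 0.25 and -0.36 in the glucose and the xylose phase, and the second chitinase gene CTS2 had 0.72 and -0.75, none of them called. In the xylose control, compared with the glucose control, 7 of the 16 were lower and none higher, at a median of -0.82 (27.2% of all probe sets called lower). UTR2 had -4.31, CHS2 -4.05 with a dim xylose value, SCW10 -4.03, SUN4 -3.83, GAS1 -3.15, SIM1 -2.01 and CTS2 -1.17. After their rise SCW10, GAS1 and SUN4 averaged 10.66, 12.48 and 9.02 in xylose pulse cells, against 11.49, 13.06 and 11.7 in glucose control cells.

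**Figure D4:**
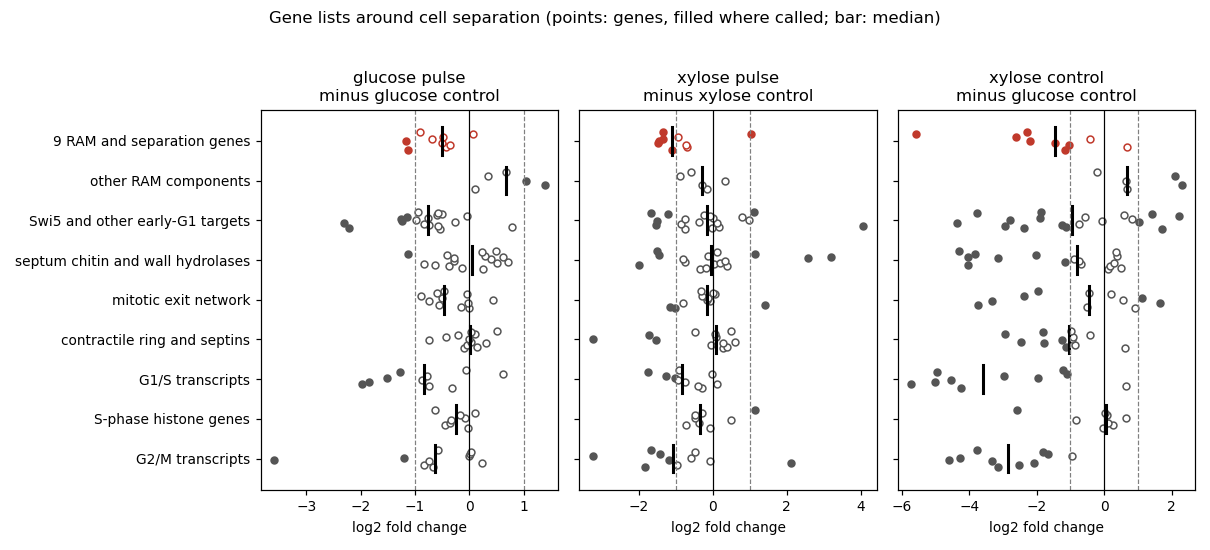
Log2 fold change (x axis) of the 9 genes (red) and of the gene lists around them (grey) in 3 comparisons. Each point is a gene, filled where called, dashed lines mark a 2-fold change and the black bar is the median of the list. The 9 genes have medians of -0.50, -1.11 and -1.46 from left to right.

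Of 11 genes of the mitotic exit network, which releases Cdc14 at the end of mitosis, none was called after the pulse in the glucose phase by limma, and 7 had an unadjusted p under 0.05, as had 70.8% of all probe sets. LTE1 had -0.89 and the polo kinase gene CDC5 -0.74. In the xylose phase the checkpoint gene BUB2 was called lower and the phosphatase gene CDC14 rose by 1.42. BUB2 was dim after the pulse (5.27), and BFA1, also called lower, lay between 2.31 and 3.72 on all arrays, so that no size is given for either. MOB1 and DBF2, the counterparts of MOB2 and CBK1 in this network, had 0.05 and -0.15 in the xylose phase and -0.05 and 0.44 in the glucose phase. In the xylose control, compared with the glucose control, 4 of the 11 were called lower and 2 higher, at a median of -0.44. The share of all probe sets called lower there was 27.2%, and the share called higher is not given. CDC14 had -3.74, CDC5 -3.34, LTE1 -2.39 and TEM1 -1.96, while CDC15 had 1.66 and DBF20 1.11. MOB1 had 0.20 in this comparison (adjusted p = 0.132). Of 12 contractile ring and septin genes none was called by limma in the glucose phase, where 4 had an unadjusted p under 0.05 (70.8% of all probe sets). In the xylose phase, where 8.38% of all probe sets were called lower, 3 of them fell, with HOF1 at -3.25, IQG1 at -1.72 and CYK3 at -1.53. CYK3 is also on the early G1 list and was counted there. HOF1 was dim after the pulse (4.82), which leaves its size inexact.

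Transcripts of other cell cycle windows were examined in the same comparisons. Over all probe sets 9.55% were called lower after the glucose pulse and 8.38% after the xylose pulse. Of 10 G1/S genes, 4 fell after the glucose pulse, with CLB6 at -1.98 and CLN1 at -1.85, and 3 after the xylose pulse, with RNR1 at -1.77, and none rose in either. Of 10 measured G2/M genes, 2 fell after the glucose pulse, the B-type cyclin genes CLB1 at -3.59 and CLB2 at -1.21, and 5 after the xylose pulse, where CDC20 rose by 2.11. SWI5, HOF1, CDC5 and MYO1 among these 10 are also on lists above, so the counts of the lists overlap. In the xylose control, compared with the glucose control, 9 of 10 G1/S genes and 9 of 10 G2/M genes were lower, at medians of -3.60 and -2.84. The share of all probe sets called lower there was 27.2%. Of 8 histone genes 1 was lower there, HTB2 at -2.59, and the median was 0.06. None of the 8 was called by limma after the glucose pulse, where 4 had an unadjusted p under 0.05, as had 70.8% of all probe sets. HTB2 alone was called after the xylose pulse, higher by 1.15. The xylose pulse values of RNR1 (5.17) and CLB1 (4.97) were dim. The part of these transcripts in the values of the 9 genes was not tested.

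The 6 separation genes were finally averaged, each centred on its own mean over the 12 arrays. Their mean profile was 0.63 in the glucose pulse, 1.31 in the glucose control, -1.58 in the xylose pulse and -0.36 in the xylose control on the log2 scale. Single genes lay at a root-mean-square distance of 0.26 (DSE1) to 0.61 (DSE4) from this profile, over 12 arrays. AMN1, which did not enter the mean, lay at 0.44, within the range of the 6, whereas CBK1 and MOB2 lay at 1.26 and 1.79. Counted from the closest, AMN1 ranked 140 and DSE4, the furthest of the 6, ranked 443. Many genes outside the chosen set thus lay within that range too, and lying within it does not set AMN1 apart. The 6 genes also entered the mean, which draws it towards them. The 10 closest of all other genes were CDC9, NUP82, TOF1, PEP5, CYK3, RIF1, INP51, MNN11, ATX2 and KCH1, at distances of 0.06 to 0.25. The DNA ligase gene CDC9 was closest, with -0.72 after the glucose pulse, -1.12 after the xylose pulse and -1.75 between the controls. CYK3 was the only one of the 10 that is also on a list above.

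**Figure D5:**
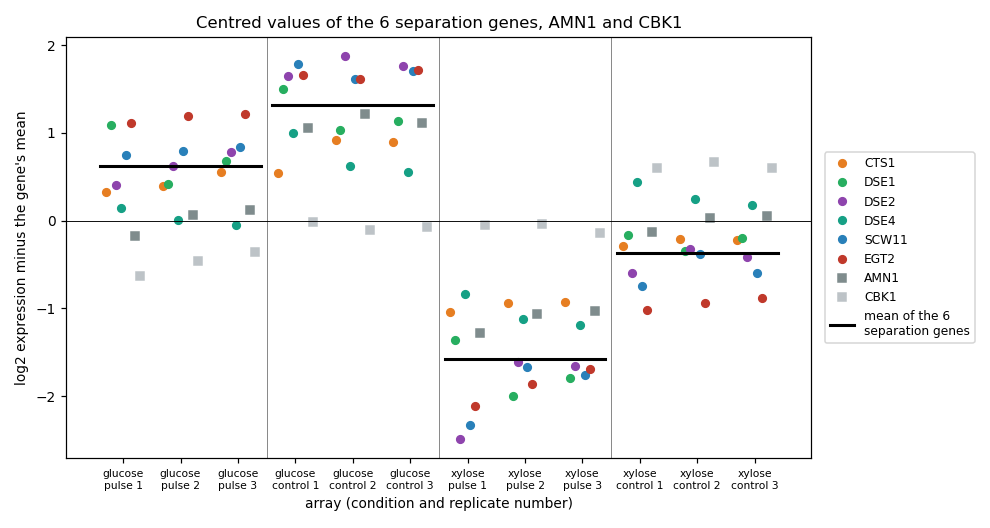
Log2 expression minus the mean of each gene over the 12 arrays (y axis), for every array (x axis). Circles are the 6 separation genes, squares AMN1 and CBK1, and the black bars the mean of the 6 genes in each condition. AMN1 is highest in the glucose control and lowest in the xylose pulse, like the bars, and CBK1 is highest in the xylose control.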

How the data were processed

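Total RNA of 12 samples, 3 for each of 4 conditions, was hybridized to Affymetrix Yeast Genome 2.0 arrays. The authors deposited log2 values from RMA (R 2.15.3), with background corrected, quantiles normalized and probes summarized by median polish. Of 5705 probe sets, 5489 carry 1 gene in the platform annotation of 2016, 0 carry several and 216 carry none; 12 symbols were updated. Where a gene had several probe sets, the brightest on average was taken. limma 3.58.1 in R 4.3.3 fitted the 4 condition means (8 residual and 4.53 prior degrees of freedom), and Benjamini-Hochberg adjustment covered all 5489. Calls needed an adjusted p under 0.01 together with a change of more than 1 on the log2 scale in either direction. The model was tested on simulated data. Figures were drawn with matplotlib 3.10.9 (Python 3.11.15; tables by pandas 2.3.3).

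Genes named are the 9 chosen genes, members of the lists on the RAM network, early G1 and the septum, up to 3 genes of smallest adjusted p of each other list or those its count rests on, and the 10 genes nearest to the mean profile of the 6 separation genes. MOB1 and DBF2 are named outside this rule, after their values were seen. The genes and lists were chosen with earlier results of these data known. Pairing by replicate number was examined through the correlation, across probe sets, of deviations from the condition means. For equal numbers of pulse and control the correlation was 0.474, 0.381 and 0.145 on glucose, while xylose gave 0.569, 0.299 and 0.305, all over the 0.1 set for pairing. Between the controls it was 0.419, 0.237 and 0.0687. Unequal numbers were in part as close, with 0.285 for glucose pulse 3 and glucose control 2, and 0.328 for xylose pulse 3 and xylose control 2. Xylose pulse 1 and glucose pulse 1, of different phases, gave 0.599. The data therefore do not show that equal numbers mark pairs of pulse and control, and no label says what a number stands for. The design without a block is the one reported, and the block is an alternative. Alternatives were other array subsets, probe sets, normalizations, priors and thresholds, and leaving out each array. No sequences are shown.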

Additional observations from a re-analysis of the deposited data

Results flagged for a closer look

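For 3 of the 9 genes the response to the pulse differed between the xylose and the glucose phase by the contrast of the responses in limma, with an adjusted p under 0.01. MOB2 had a difference of 0.97 (adjusted p = 9.61e-06), with 1.04 in the xylose phase and 0.07 in the glucose phase. DSE1 had -0.98 (adjusted p = 0.00458), with -1.48 in the xylose phase and -0.50 in the glucose phase. DSE4 had -0.65 (adjusted p = 0.0061), with -1.34 and -0.69. All 3 differences were under 2-fold, and 64.3% of all probe sets had such a p in this contrast. With the replicate number as a block EGT2 (-0.45, adjusted p = 0.00263) and CTS1 (-0.36, adjusted p = 0.00931) passed as well. Groups of 3 arrays were too small to look for single outlying arrays.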

How the results depend on the processing

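Of 1021 values of single genes under alternatives, 986 kept their direction and their side of the thresholds, 24 gained a call, 5 lost one and 6 changed sign. All 6 were the difference between the responses of AMN1, which ranged from -0.07 to 0.09 when arrays were left out and was -0.02 without replicate 1 of every condition. With each array left out, the number of the 9 genes called was 2 after the glucose pulse, 5 to 7 after the xylose pulse, 6 to 7 between the controls, 8 between the pulsed cells and 0 to 1 for the difference of the responses. The lower count between the controls came without glucose control replicate 2 or 3 (CTS1). Without a fold threshold the number was 7 after the glucose pulse (2 with it) and 3 for the difference of the responses (0 with it). After a second quantile normalization it was 1 for the difference, MOB2 at 1.05. With the replicate number as a block the counts were 2, 6, 0, 7 and 8, the same as without it, for the glucose pulse, the xylose pulse, the difference, the controls and the pulsed cells, and no call by both thresholds changed. By adjusted p alone the block gave 8 in place of 7 genes after the glucose pulse (DSE1 added) and 5 in place of 3 for the difference (EGT2 and CTS1 added). A filter on the dimmest 25% of probe sets removed MOB2 and kept the other 8 genes; of the other lists 7 genes were then called after the glucose pulse, 15 for the difference, 31 between the controls (49 unfiltered) and 25 between the pulsed cells (44 unfiltered). Leaving out replicate 1 of every condition, an alternative chosen after seeing the data, gave MOB2 0.99 after the xylose pulse, short of 2-fold, and DSE1 -1.08 for the difference. Of the genes on other lists, 51 instead of 14 passed after the glucose pulse, 54 instead of 25 after the xylose pulse and 49 instead of 30 for the difference without the fold threshold. Xylose values near or below the 10th percentile of the arrays limit the exact size of the changes that use them. This holds for MOB2, SWI5, CLN3, CHS2, HOF1, BUB2, BFA1, RNR1, CLB1, AAC3 and some other G1/S and G2/M genes. Changes within the glucose phase use no xylose values.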

Other observations

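MOB2 lies between RPO41 and RPL22B on chromosome VI in the RefSeq annotation. RPL22B, a ribosomal protein gene on the same strand, averaged 6 ± 0.37 in the xylose control and 12.01 ± 0.28 in the glucose control (SD, n = 3 each), a log2 fold change of -6.01 (adjusted p = 1.9e-12), beside -5.58 for MOB2, both with dim xylose values. It fell by 2.20 after the pulse in the glucose phase, where MOB2 had 0.07, and had -0.14 in the xylose phase, where MOB2 rose. RPO41, the mitochondrial RNA polymerase gene on the other strand, was 1.97 higher in the xylose control (adjusted p = 8.97e-11). These neighbours were looked at after the values of MOB2 had been seen.

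YGP1, a secreted wall glycoprotein gene next to CBK1, had a log2 fold change of 4.74 after the pulse in the glucose phase and 5.10 between the xylose and the glucose control, where CBK1 had -0.42 and 0.69. CHS7, a gene for a chitin synthase export factor next to DSE2, was measured at 10 ± 0.12 in xylose pulse cells and 11.67 ± 0.02 in xylose control cells, a log2 fold change of -1.67 (adjusted p = 9.52e-09) beside -1.47 for DSE2. It had -0.45 after the glucose pulse, where DSE2 had -1.16, and 0.76 between the xylose and the glucose control (adjusted p = 5.14e-06), where DSE2 had -2.21. These neighbours, too, were chosen after their values were seen.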
